A study of Mus musculus with 12 samples.

Results

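The SCAN-domain zinc finger genes were taken as all rows of the count table whose symbol is Zkscan or Zscan followed by a number, with optional final letters. There were 29 such genes among the 50559 rows, 11 of them Zkscan and 18 Zscan. The 19 with at least 10 reads in 6 or more of the 12 libraries are described here, and all 19 also passed the expression filter of the test. The libraries were made from bone marrow-derived macrophages of C57BL/6 mice, cells grown in culture from marrow, which had received either house dust mite (HDM) allergen or vehicle 1 h before (6 libraries of each). No other genotype, agent or age is given in the labels. The origin of the replicates, whether different mice, different cultures or repeat preparations, is not named either. The p-values therefore describe only how far these libraries spread, and that spread may be technical.

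SCAN-domain zinc finger proteins carry, near the start of the protein, a SCAN domain through which family members pair with themselves and with each other. At the other end they carry an array of C2H2 zinc fingers that reads DNA. Zkscan genes are named for an additional KRAB domain, which in many zinc finger proteins recruits the corepressor TRIM28 (KAP1) and histone-modifying enzymes to shut target chromatin, while Zscan genes are named for the SCAN domain and the fingers alone. The genes lie in clusters with related zinc finger genes. The function of most of them in macrophages is little described, with Zkscan3, the human counterpart of which represses autophagy and lysosome genes, among the better known.

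Counted reads per library ran from 19.69 M to 119.7 M, and the median was 41.11 M in the HDM group and 41.71 M in the vehicle group. All 8 macrophage markers were detected, at a summed level of 16800 to 21300 CPM (TMM-scaled counts per M reads) in the 12 libraries, and of these Cd14 rose. Most markers of other cell types were too low to be tested: 2 of 5 for neutrophils, 4 of 4 for stroma and endothelium, Pf4, and 0 for the other lists were tested, and of these none was called. Dendritic cell markers summed to 0.104 to 0.753 CPM, lymphocyte markers to at most 0.142, mast cell, basophil and eosinophil markers to at most 0.1 and neutrophil markers to 3.48 to 6.19. Stromal and endothelial markers summed to 1.8 to 6.61 CPM, and the basophil gene Mcpt8 was at 0 reads. The platelet factor gene Pf4, a megakaryocyte marker that macrophages can also express, was far above these, at 102 to 197 CPM with HDM and 96.8 to 186 with vehicle, while Itga2b reached at most 0.311 and the globin genes Hbb-bs and Hba-a1 were at 0 reads. For several members libraries numbered 5 and 6 differed from those numbered 1 to 4 in both treatments, so values are also given within each set of numbers.

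Start regions of members that fell with HDM, and of a neighbour that was not called, are printed first to show which short motifs these genes hold near their start. Each sequence covers 250 bases before to 50 after a RefSeq gene start (build GRCm38.p6), written 5′ to 3′ on the gene's strand, and capitals mark every match to the motifs listed after them. Of the 19 described genes, 14 had an entry, with 19 start sites in all. Zkscan14, Zkscan3, Zkscan5, Zkscan7 and Zscan30 had none. Zkscan1 (chr5:138084834-138085133, + strand), Zscan25 (chr5:145280201-145280500, + strand), Zscan12 (chr13:21362570-21362869, + strand) and Zkscan17 (chr11:59506591-59506890, - strand) fell with HDM. Zscan21 (chr5:138116655-138116954, + strand) is the gene after Zkscan1 on the chromosome and was not called.
Zkscan1: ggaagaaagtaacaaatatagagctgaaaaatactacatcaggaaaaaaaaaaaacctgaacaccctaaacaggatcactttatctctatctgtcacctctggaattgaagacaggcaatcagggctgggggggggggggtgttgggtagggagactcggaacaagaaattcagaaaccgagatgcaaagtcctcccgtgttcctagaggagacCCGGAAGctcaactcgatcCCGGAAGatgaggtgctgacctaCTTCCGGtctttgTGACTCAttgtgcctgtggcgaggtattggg
Zscan25: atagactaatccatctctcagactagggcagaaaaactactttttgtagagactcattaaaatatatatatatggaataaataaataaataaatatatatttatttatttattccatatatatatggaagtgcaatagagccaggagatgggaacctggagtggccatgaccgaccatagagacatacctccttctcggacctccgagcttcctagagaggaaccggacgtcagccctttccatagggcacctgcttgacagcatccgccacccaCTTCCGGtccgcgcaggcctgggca
Zscan12: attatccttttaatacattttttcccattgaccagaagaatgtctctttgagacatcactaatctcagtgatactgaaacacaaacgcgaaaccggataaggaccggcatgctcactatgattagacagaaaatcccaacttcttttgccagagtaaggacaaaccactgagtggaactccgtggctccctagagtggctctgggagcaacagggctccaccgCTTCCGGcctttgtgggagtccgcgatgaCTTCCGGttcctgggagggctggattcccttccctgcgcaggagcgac
Zkscan17: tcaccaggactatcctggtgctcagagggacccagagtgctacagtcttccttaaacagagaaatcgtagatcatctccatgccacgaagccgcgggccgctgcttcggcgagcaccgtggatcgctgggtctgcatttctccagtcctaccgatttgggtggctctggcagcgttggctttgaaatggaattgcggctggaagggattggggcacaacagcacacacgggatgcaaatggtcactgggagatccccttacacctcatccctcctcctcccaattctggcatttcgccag
Zscan21: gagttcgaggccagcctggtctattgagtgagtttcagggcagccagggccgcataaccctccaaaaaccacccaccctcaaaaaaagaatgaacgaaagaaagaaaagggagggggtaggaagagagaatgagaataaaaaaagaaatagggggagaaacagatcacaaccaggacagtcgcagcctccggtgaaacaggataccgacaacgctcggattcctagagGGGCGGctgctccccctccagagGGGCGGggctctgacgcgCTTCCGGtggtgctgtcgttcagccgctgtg

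The 9 motifs, searched on both strands, were the TATA box by its letters TATAAA, the GC box by GGGCGG, AP-1 by TGANTCA, the CRE by TGACGTCA, the E-box by CACGTG, the core of ETS factor sites by CCGGAAG, YY1 by GCCATNTT, and longer motifs of NRF1 and NF-kB. The ETS core was in 8 of the 19 start regions, which belong to 7 genes, and in 8.86% of the 32851 regions of the same length over all genes. Those 7 were Zkscan1 with 3 matches, Zscan12, Zkscan8 and Zscan29 with 2 each, and Zscan25, Zscan21 and Zkscan4 with 1 in a region, so the motif was shared by members that fell and members that were not called. The 2 matches of Zkscan8 overlap in the same stretch, CTTCCGGAAG, read on opposite strands. The AP-1 motif was found in the Zkscan1 region alone of the 19, against 7.81% of all regions. The NF-kB motif was in none of the 19 and in 0.411% of all regions, and the NRF1 and YY1 motifs were in none of the 19 and in 4.6% and 6.05% of all regions. GC boxes were in 6 of 19, against 35.7%. The CRE was in 2 regions (Zscan18 and Zscan20, against 1.79% of all regions), the E-box in 3 (all of Zscan18, against 7.15%) and the TATA box in 1 (Zscan2, against 13.6%). Start regions of Zscan25, Zscan18, Zscan2 and Zkscan6 that belong to the same gene are counted separately, some of them overlapping almost fully, and a match is a run of letters and not evidence of binding.

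**Figure D1:**
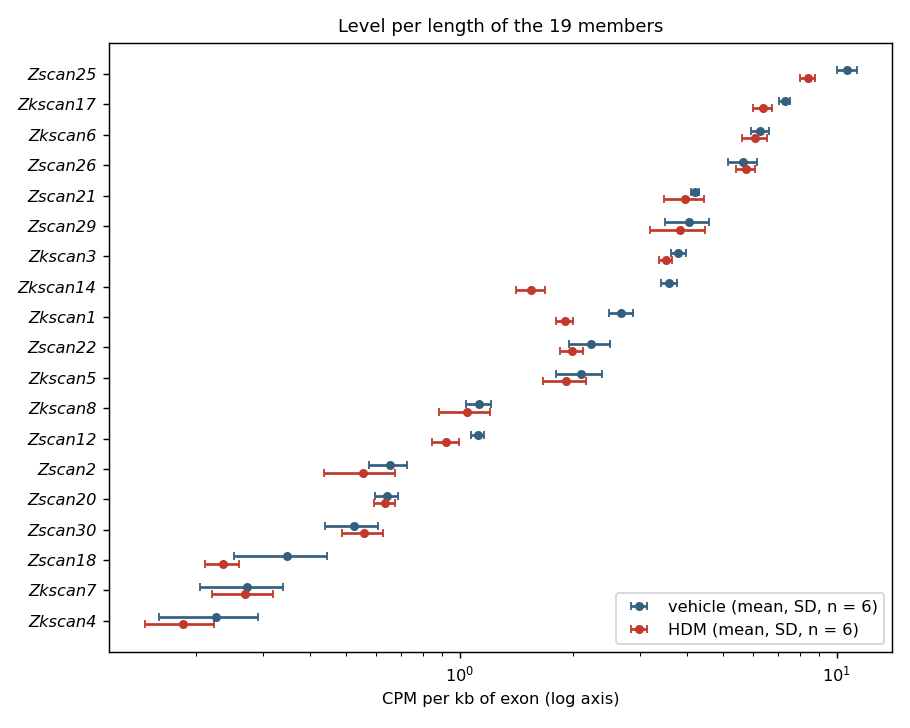
Level of each of the 19 described genes per kb of exon (CPM per kb, log axis), mean and SD over 6 vehicle libraries (blue) and 6 HDM libraries (red). The vehicle means span 0.225 to 10.65 CPM per kb, and Zkscan14 shows the widest gap between the treatments.

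Levels between genes were compared per kb of exon, using the union of exons in GENCODE M21. With vehicle, Zscan25 was the highest at 10.65 ± 0.654 CPM per kb (SD, n = 6), followed by Zkscan17, whose protein binds the histone methyltransferase NSD1, at 7.29 ± 0.243. Zkscan6 (6.26 ± 0.346) and Zscan26 (5.64 ± 0.495) came next and overlapped over the 6 vehicle libraries. Zscan21, Zscan29, Zkscan3 and Zkscan14 formed a run from 4.21 down to 3.59 in which each gene overlapped the next. Zkscan4, Zkscan7 and Zscan18 were the lowest, at 0.225 ± 0.0662, 0.272 ± 0.0682 and 0.348 ± 0.0966 CPM per kb, and overlapped too. With HDM the order of the 7 highest genes was the same, while Zkscan14 went from place 8 to place 11. The annotation behind the counts is not named, and these lengths may differ from those of the counted features.

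The other 10 members were near or at 0. The 6 Zscan4 genes, known from the very early embryo and from rare embryonic stem cells, had 0 reads in 553.8 M, which allows at most 0.00542 reads per M for each. These are near-identical copies, whose reads can be lost in counting. Zscan5b had 1 read, the pluripotency gene Zscan10 had 4, Zkscan16 had 15 and Zkscan2 had 34, with at most 9 in a library. Zkscan2, the highest outside the read threshold, reached 10 reads in 0 libraries. The lowest inside it passed in all 12: Zkscan4, with 260 reads and 11 to 45 per library, and Zscan30, with 447 reads and 16 to 91 per library.

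The comparison asks which transcripts of macrophages differ 1 h after contact with the allergen. Of the 19 genes, 5 fell and 0 rose: by name the Zkscan genes Zkscan14, Zkscan1 and Zkscan17 and the Zscan genes Zscan25 and Zscan12. The domains of the members were not examined here. Over all 13530 tested genes 2.47% fell and 2.9% rose. At an unadjusted p under 0.05 the members numbered 7 down and 0 up, beside 7.13% and 6.83% of all tested genes, and 0 rose with DESeq2 or limma-voom. With the replicate number as a block 6 fell and 0 rose, beside 6.81% and 7.9% of all genes. The median log2 fold change was -0.12 over the 19 genes and 0.00 over all tested genes. Of the 19, 16 had a value below 0 (52.5% of all tested genes did). In 5 of the 19 all HDM libraries lay below all vehicle libraries, against 2.07% of all tested genes, and in 0 all HDM libraries lay above, against 2.32%. In the same 5 the HDM library was the lower in every one of the 6 numbers, which full separation requires, against 8.95% of all tested genes. In bulk RNA, fewer cells that express a gene and less RNA per cell cannot be told apart.

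**Figure D2:**
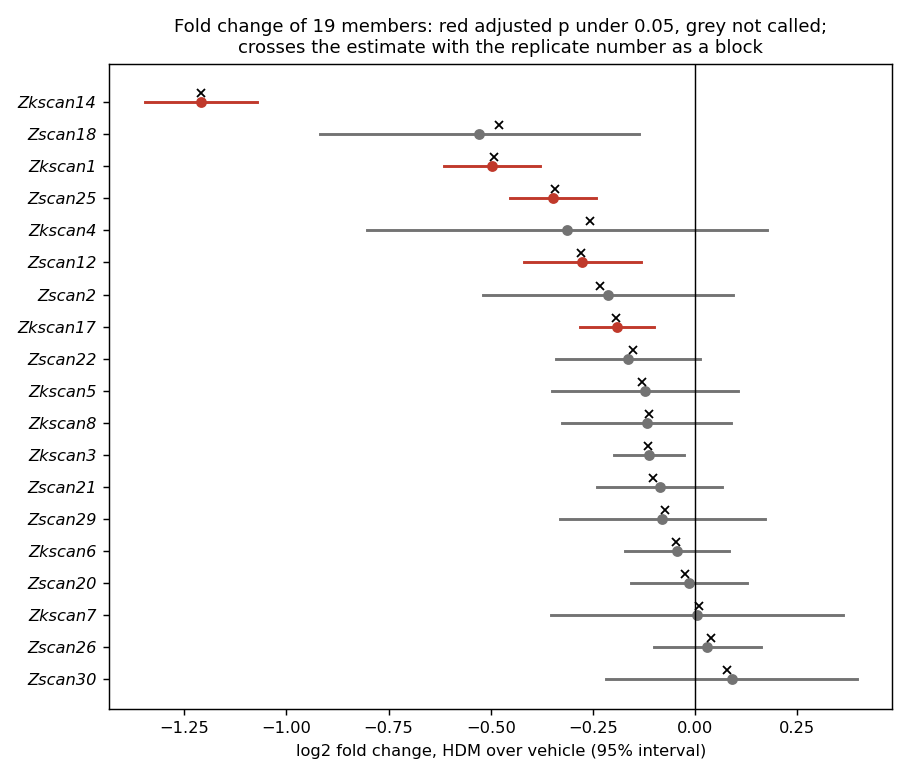
Log2 fold change of the 19 described genes, HDM over vehicle, with the 95% interval of the quasi-likelihood fit over 12 libraries. Red marks the 5 genes with an adjusted p under 0.05, grey the others, and crosses the estimate with the replicate number as a block. Zkscan14 at -1.21 lies apart from the other 18.

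Zkscan14, whose human counterpart ZNF394 is described as a repressor of AP-1-dependent transcription, had by far the largest difference of the family. With vehicle its level was 12.17 CPM in the lowest library, 13.2 at the median and 13.7 in the highest. With HDM it was 5.05, 5.56 and 6.16. The groups were separated by a wide gap. The fall was 1.21 ± 0.06 SE on the log2 scale (adjusted p = 8.45e-08, 95% interval -1.35 to -1.07), so that its mean fell by 56.7%, at 1723 reads with HDM and 3245 with vehicle. It was -1.23 in libraries numbered 1 to 4 and -1.14 in numbers 5 and 6.

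Zkscan1, the gene that hosts a widely studied circular RNA, was next among the called genes. Its level ran from 19.998 CPM over a median of 23.2 to 24.4 with vehicle, and from 15.3 over 16.3 to 17.1 with HDM. Again no library of either group reached into the other. It fell by 0.50 ± 0.05 SE on the log2 scale (adjusted p = 6.76e-05). Counts per gene do not separate the circular from the linear transcript, and poly(A) selection, named in the library kit, favours the linear form.

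Zscan25 had 18.6 CPM in the lowest vehicle library, 20.4 at the median and 22.5 in the highest, against 15.2, 16.3 and 17.1 with HDM. It fell by 0.35 ± 0.05 SE (adjusted p = 0.000625). The groups did not overlap. Both Zkscan1 and Zscan25 were called in each set of numbers taken alone. Zkscan1 was at -0.44 (adjusted p = 0.000663) in numbers 1 to 4 and -0.62 (5.67e-09) in numbers 5 and 6. Zscan25 was at -0.29 (0.00277) and -0.48 (4.4e-06) in the same sets. The sets are parts of the libraries of the main fit, so these calls are no separate support for the falls. Few libraries were compared in numbers 5 and 6. The small p-values there describe only how little those libraries spread, and that spread may be technical.

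Zkscan17, also called Nizp1, fell least of the 5. Its level was 31.7, 33.3 and 34.7 CPM (lowest, median, highest) with vehicle and 27.3, 28.6 and 31.4 with HDM, so the highest HDM library lay just under the lowest vehicle library. It fell by 0.19 ± 0.04 SE on the log2 scale (adjusted p = 0.0165). In numbers 1 to 4 it was called at -0.21 (adjusted p = 0.0029), and in numbers 5 and 6 it was at -0.14 (adjusted p = 0.139, 2 libraries against 2).

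Zscan12 had 5.24, 5.57 and 5.88 CPM with vehicle and 4.1, 4.65 and 5.13 with HDM, which again left no overlap. It fell by 0.28 ± 0.07 SE (adjusted p = 0.0273). This call was the least secure: it was lost when any of HDM 1, 2, 3 or 5 or of vehicle 1, 3, 4 or 6 was left out, with adjusted p from 0.0502 to 0.0678 and log2 values from -0.28 to -0.24. It was also lost with no expression filter (0.0816) and in either set of numbers alone (0.0635 and 0.303).

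**Figure D3:**
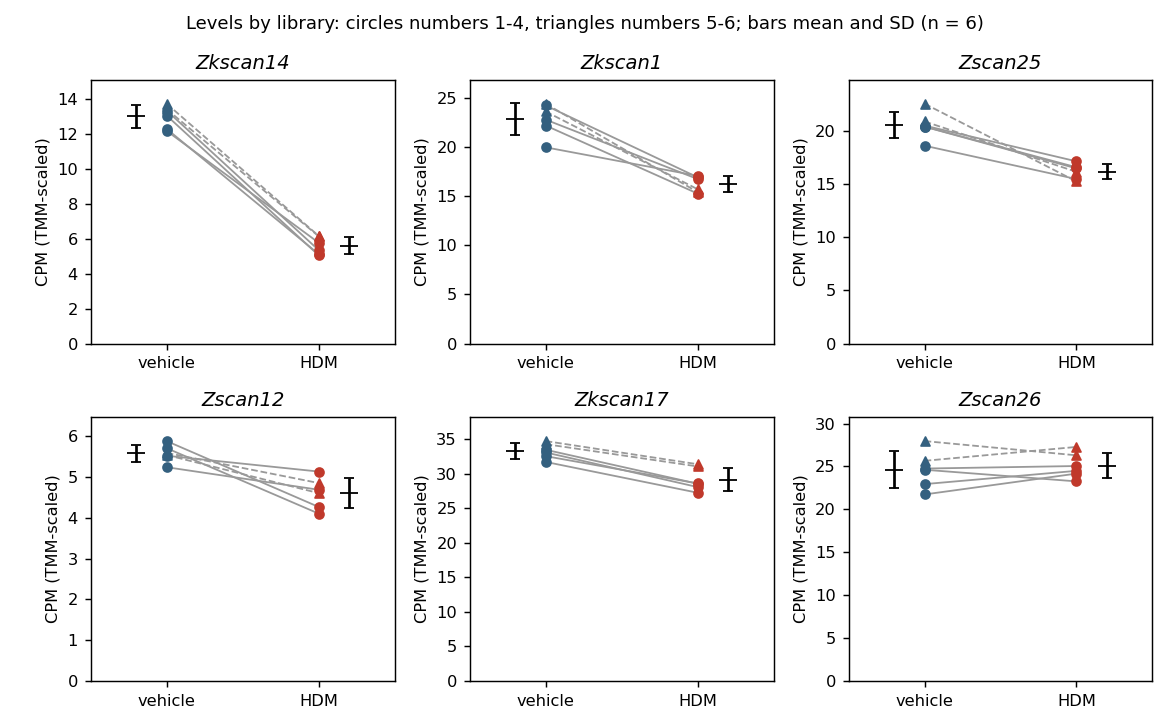
CPM in each library for the 5 genes that fell and for Zscan26, which was not called. Points are libraries (blue vehicle, red HDM, circles numbers 1 to 4, triangles numbers 5 and 6), grey lines join libraries of the same number, and bars give mean and SD (n = 6). In the 5 called genes every red point lies below every blue point, and in Zscan26 the groups overlap.

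Of the 14 genes that were not called, 11 had a log2 fold change below 0 and 3 above, from -0.53 to 0.09. The 95% interval of 12 of them spanned 0, so the data leave a change in either direction possible. Such a change need not be small: the interval ran from -0.80 to 0.18 for Zkscan4 and from -0.35 to 0.36 for Zkscan7.

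The other Zkscan genes were not called in the main fit. Zkscan3 had 30.3 ± 1.37 CPM with vehicle and 28.1 ± 1.11 with HDM (SD, n = 6 each), at -0.11 ± 0.04 SE (adjusted p = 0.154, 95% interval -0.20 to -0.03). With the replicate number as a block it was called lower (adjusted p = 0.0473), the 1 member that the block added. Zkscan8 was at -0.12 ± 0.10 (adjusted p = 0.765) and Zkscan5 at -0.12 ± 0.11 (0.804), with intervals of -0.32 to 0.09 and -0.35 to 0.11. Zkscan6 (-0.04 ± 0.06, adjusted p = 0.941) had the narrower interval of -0.17 to 0.08. Zkscan7 was at 3.52 ± 0.881 CPM with vehicle and 3.49 ± 0.636 with HDM, and the low-count gene Zkscan4 at 0.540 ± 0.159 and 0.442 ± 0.0915 CPM, with a wide interval of -0.80 to 0.18.

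Among the other Zscan genes, Zscan18 had the largest estimate, at -0.53 ± 0.18 SE (adjusted p = 0.14). It had 0.902, 1.51 and 2.02 CPM (lowest, median, highest) with vehicle and 0.855, 1.02 and 1.11 with HDM, so the HDM libraries overlapped only the low end of the vehicle group. Without vehicle 1, its lowest vehicle library, it was called lower (-0.64, adjusted p = 0.034). In numbers 5 and 6 it was at -0.96 (adjusted p = 0.00791), with vehicle at 2.02 and 1.77 CPM there, and in numbers 1 to 4 at -0.27 (0.521). This difference between the sets of numbers was not tested.

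Zscan22 had 7.79 ± 0.955 CPM with vehicle and 6.95 ± 0.472 with HDM (-0.16 ± 0.08 SE, adjusted p = 0.419), and Zscan2 1.95 ± 0.226 and 1.66 ± 0.353 (-0.21 ± 0.14, adjusted p = 0.648). Zscan21, studied in cerebellar granule neuron precursors, was at -0.09 ± 0.07 (adjusted p = 0.777). In numbers 1 to 4 alone it was called lower (-0.18, adjusted p = 0.0353), and in numbers 5 and 6 it was at 0.09 (0.621). Zscan26 was at 0.03 ± 0.06 (interval -0.10 to 0.16), Zscan20 at -0.01 ± 0.07 (-0.16 to 0.13) and Zscan30 at 0.09 ± 0.14 (-0.22 to 0.40).

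Zscan29 varied more by library number than by treatment. With vehicle it averaged 30.9 CPM in numbers 1 to 4 and 25.3 in numbers 5 and 6, and with HDM 30.4 and 21.8. Its estimate over all libraries was -0.08 ± 0.12 SE (adjusted p = 0.954), and in numbers 5 and 6 alone it was called lower (-0.21, adjusted p = 0.0294). Zkscan7 and Zkscan5 had the opposite tendency: with vehicle they averaged 3.08 and 7.89 CPM in numbers 1 to 4 against 4.39 and 10.04 in numbers 5 and 6, and with HDM 3.11 and 7.25 against 4.23 and 9.12. What the numbers stand for is not given in the labels. In numbers 1 to 4 alone 5 members fell, with Zscan21 in place of Zscan12 (2.88% of all genes fell and 5% rose), and in numbers 5 and 6 alone 5 fell, with Zscan18 and Zscan29 in place of Zscan12 and Zkscan17 (4.22% and 4.25%). In each, 0 members rose.

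**Figure D4:**
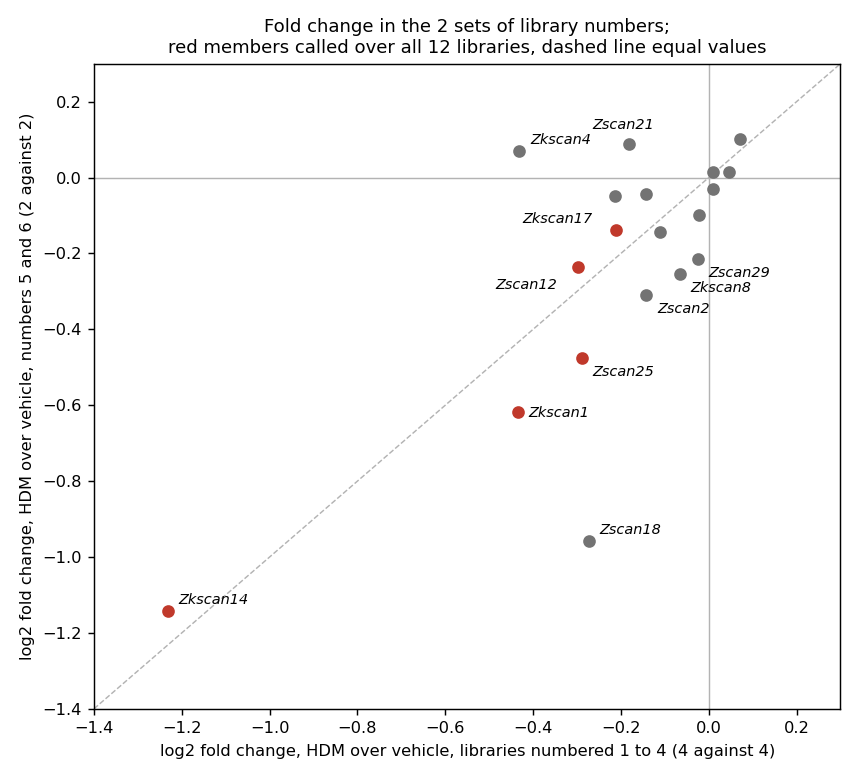
Log2 fold change, HDM over vehicle, of the 19 genes fitted in libraries numbered 1 to 4 (horizontal axis, 4 against 4) and in numbers 5 and 6 (vertical axis, 2 against 2), with red for the 5 genes called over all 12 libraries and a dashed line at equal values. The 5 called genes lie below 0 on both axes, Zkscan14 at -1.23 and -1.14, while Zscan18 lies far below the line.

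By name, 3 of the 9 described Zkscan genes and 2 of the 10 described Zscan genes fell, beside 2.47% of all tested genes. Their median log2 fold changes were -0.12 and -0.13. With the block 4 of 9 and 2 of 10 fell, beside 6.81% of all tested genes. The difference between the groups of names was not tested.

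Several members are neighbours on the chromosomes, by the gene order of RefSeq (GRCm38.p6). Of the 5 described members on chromosome 5, 3 fell, and of the 5 on chromosome 13, 1 fell, beside 2.47% of all tested genes. Zkscan14 and Zkscan5 lie next to each other, followed by Zfp655 and Zscan25. Zkscan14 (-1.21), Zfp655 (-0.54 ± 0.07 SE, adjusted p = 0.000182) and Zscan25 (-0.35) fell, while Zkscan5 between them was at -0.12. On the other side of Zkscan14, Cpsf4 was at -0.10 ± 0.04 (adjusted p = 0.323) and Atp5j2 at -0.03 ± 0.06. In the second cluster of that chromosome Zkscan1 fell, and the next genes, Zscan21 and Zfp113, were at -0.09 and -0.17 ± 0.16 (adjusted p = 0.848 for Zfp113). On chromosome 11, Zkscan17 lies between Zfp867, which fell by 0.58 ± 0.12 SE (adjusted p = 0.0147), and the inflammasome gene Nlrp3, which rose from 74.1 ± 6.69 to 193 ± 43.5 CPM (1.39 ± 0.13, adjusted p = 1.37e-05).

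**Figure D5:**
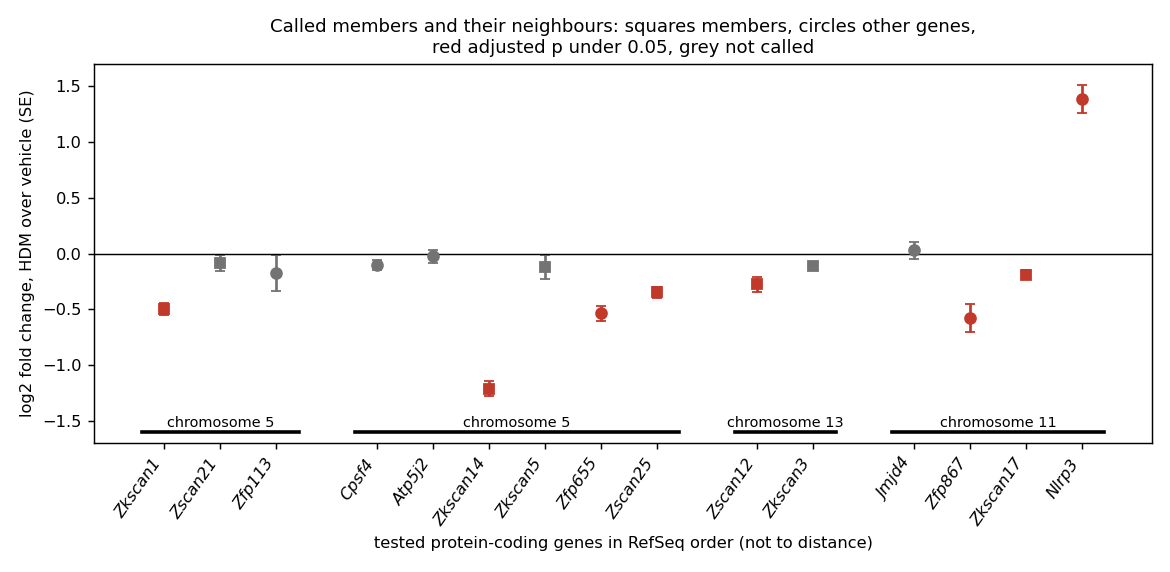
Log2 fold change with its SE for members that fell (red squares), members not called (grey squares) and the tested protein-coding genes within 2 places of a called member (circles, red where called), in RefSeq order and not to distance. Zkscan14 at -1.21 sits beside Zkscan5 at -0.12, and Zkscan17 beside Nlrp3 at 1.39.

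The difference within a cluster was tested with the ratio of reads of adjacent members in the same library, which does not depend on scaling between libraries. There were 4 adjacent pairs of described members, and the pairs were chosen after the fold changes were seen. The log2 ratio of Zkscan14 to Zkscan5 was 0.60 ± 0.18 with vehicle and -0.49 ± 0.07 with HDM (SD, n = 6 each). It was lower with HDM in 6 of 6 numbers (difference -1.09, two-sided exact permutation p = 0.00216, the smallest that 924 splits can give, adjusted p = 0.00433 over 4 pairs). The log2 ratio of Zkscan1 to Zscan21 went from 0.76 ± 0.12 to 0.36 ± 0.22 (difference -0.40, exact permutation p = 0.00216, adjusted 0.00433), also lower in 6 of 6. That of Zscan12 to Zkscan3 went from -2.44 ± 0.08 to -2.61 ± 0.10 (difference -0.17, exact permutation p = 0.00866, adjusted 0.0115), lower in 5 of 6. For Zkscan4 and Zkscan8 the difference of -0.13 did not pass (exact permutation p = 0.597). When signs were flipped within numbers, the 3 pairs that passed had adjusted p of 0.0625, 0.0625 and 0.0833 in an exact permutation test whose smallest unadjusted p is 0.0312, so none passed there. Since these pairs set a called member against an uncalled one, the ratios describe the same falls again and are no separate support for them.

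Other genes of the SCAN family bear Zfp names or names of their own. Of a list of 21 such names, 16 were in the table, and Zfp18, Zfp394, Zfp483 and Zfp496 are older names of Zkscan6, Zkscan14, Zkscan16 and Zkscan17. The 15 tested had a median of -0.09. At an unadjusted p under 0.05, 3 fell and 1 rose, beside 7.13% and 6.83% of all tested genes. After adjustment 1 fell and 0 rose, beside 2.47% and 2.9%. The gene that fell was Zfp24, from 35.0 ± 2.39 to 30.5 ± 0.999 CPM (SD, n = 6 each; -0.20 ± 0.05 SE, adjusted p = 0.0215). No member of this list was called when HDM 1, HDM 5 or vehicle 4 was left out. Zfp287 was at -0.18 ± 0.06 (adjusted p = 0.132), Zfp174 at 0.32 ± 0.12 (0.168) and Zfp202 at -0.27 ± 0.11 (0.26). With the replicate number as a block 3 fell (Zfp24, Zfp202 and Zfp110) and 1 rose (Zfp174), beside 6.81% and 7.9% of all tested genes.

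The genes through which KRAB zinc fingers act on chromatin showed small differences. Of 21 tested corepressor genes, 0 were called in the main fit, where 2.47% of all tested genes fell and 2.9% rose. The median was 0.03. At an unadjusted p under 0.05, 1 was down and 2 were up, beside 7.13% and 6.83% of all tested genes. Trim28, the corepressor that KRAB domains bind, was at 167 ± 1.55 CPM with vehicle and 160 ± 4.97 with HDM (-0.06 ± 0.03 SE, adjusted p = 0.33). Hdac2, a histone deacetylase gene, was at 0.10 ± 0.04 (0.168), Mphosph8, of the HUSH silencing complex, at 0.11 ± 0.04 (0.186), and the chromatin remodeller gene Smarcad1 at 0.10 ± 0.06 (0.524). With the block Suv39h1 and Uhrf1 were called lower (adjusted p = 0.0151 and 0.0122) and Hdac2 higher (0.0305). That was 9.52% and 4.76% of the list, beside 6.81% and 7.9% of all tested genes.

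The most similar large group, genes named Zfp with a number, had 339 tested members, of which 60 fell and 4 rose, or 17.7% and 1.18%. This group includes the Zfp-named genes of the list of other SCAN-domain genes, among them Zfp24, so the 2 lists overlap. The median log2 fold change of the numbered Zfp genes was -0.11, close to that of the 19 Zkscan and Zscan genes. With the block 107 fell and 12 rose, or 31.6% and 3.54%, beside 6.81% and 7.9% of all tested genes. The 4 with the smallest p were Zfp36, which encodes the mRNA decay factor tristetraprolin and not a DNA-binding zinc finger protein, at 2.63 ± 0.13 SE (adjusted p = 3.53e-08), Zfp84 at -0.79 ± 0.06 (2.46e-06), Zfp472 at -1.17 ± 0.09 (2.61e-06) and Zfp866 at -0.83 ± 0.07 (4.05e-06). Falls were a larger share among Zkscan and Zscan genes (26.3%) and among numbered Zfp genes (17.7%) than among all tested genes (2.47%). This is a description with no test of the difference, and members and lists were chosen with earlier results of these data known.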

How the data were processed

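Poly(A)-selected stranded RNA-seq libraries, 6 per treatment, were analysed. The authors deposited raw counts per gene symbol, 1 column per library. The submitters' processing notes name STAR 2.6.0c as aligner software, featureCounts 2.0.6 (Subread) for counting, cutadapt 4.5 and Trim Galore 0.6.10 for trimming, and FastQC 0.12.1. They name GRCm38 as well as mm39 without saying which served for what. Neither annotation nor strand setting is stated there, and overlapping genes may share reads, as may paralogs. In RefSeq Zscan29, Zscan30, Zscan18 and Zkscan7 overlap other protein-coding genes. The called Zscan25 and Zkscan17 and the uncalled Zscan26 and Zkscan8 overlap long noncoding RNA genes.

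Counts were tested with edgeR 4.0.16 (limma 3.58.1, R 4.3.3): quasi-likelihood F test, TMM factors, filterByExpr, group as the only term, two-sided, Benjamini-Hochberg over 13530 genes, threshold 0.05. SE is the absolute log2 fold change over the square root of F. CPM use TMM-scaled totals of tested genes. Alternatives are in the closing section. All 19 members with at least 10 reads in 6 columns are named, the called ones by library, and of other lists the 4 smallest p. Members and lists were chosen with earlier results of these data known. The script was tested on simulated data. One marker gene is not reported here. Promoter sequences are RefSeq's (GRCm38.p6).

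Deviations from group means correlated between equal numbers at 0.367 to 0.672, above the bound of 0.1, so the number was tried as a block. The labels state no pairing. Unequal numbers within the sets 1 to 4 and 5 to 6 also correlated, some more strongly (HDM 5 with vehicle 6 at 0.704). Only 2 of 6 numbers matched best with their own, and all correlations between the sets were below 0 (-0.551 to -0.37). The correlations thus show the 2 sets and do not establish pairs by number. The main test did not use the numbers, while the block fit and the sign flips did. No fit had the sets of numbers as a term.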

Additional observations from a re-analysis of the deposited data

Results flagged for a closer look

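Of 40 groups of 6 values examined (19 genes and the library total, in each treatment), 1 had a library far from the others, and chance gives about 1 in 20. It was the total of HDM 1, at 120 M reads (119.7 M) against 46.4 M in the next HDM library, a gap of 0.733 of the group's range. Without HDM 1, 4 of the 19 genes fell instead of 5 (1.73% of all tested genes fell), the difference being Zscan12 (adjusted p = 0.0652).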

How the results depend on the processing

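Over 11 other settings (upper-quartile factors, total library size, DESeq2 size factors in edgeR, DESeq2, limma-voom, the robust setting, no filter, a filter of 10 reads in 6 columns, the replicate block, libraries numbered 5 and 6, and 1 to 4), 4 to 6 of the 19 members fell and 0 rose (0.859% to 6.81% of all tested genes fell), and with each library left out 4 to 5 fell (1.71% to 2.13% of all tested genes). Zkscan14, Zkscan1 and Zscan25 were called lower in all 23 alternatives, and Zkscan17 in all but numbers 5 and 6. The Zkscan17 call came close to the threshold, with adjusted p from 0.00954 to 0.0475 with a library left out and 0.0418 with no filter. With the replicate number as a block, other SCAN-domain genes numbered 3 down and 1 up, KRAB corepressor genes 2 and 1, and numbered Zfp genes 107 and 12. Of all tested genes 6.81% fell and 7.9% rose with the block. In numbers 1 to 4, 0 other SCAN-domain genes fell (2.88% of all tested genes did). In numbers 5 and 6, 1 KRAB corepressor gene fell and 1 rose (4.22% and 4.25% of all tested genes). With a library left out, other SCAN-domain falls were 0 to 1, and numbered Zfp rises 2 to 4. The block added Zkscan3 and changed no other call of a member. Values of uncalled genes turned sign: Zkscan4 (-0.31 over all libraries) to 0.0705 and Zscan21 to 0.0888 in numbers 5 and 6, Zkscan7 to -0.0129 (upper quartile) and -0.0172 (total size), with -0.0725 to 0.1212 without a library, Zscan20 to 0.0014 with DESeq2, 0.005 with limma-voom and 0.0097 in numbers 1 to 4 (without a library -0.0474 to 0.0099), Zscan26 to -0.0035 without vehicle 1 (range -0.0035 to 0.0686) and the ratio of Zkscan4 to Zkscan8 to 0.005071 without HDM 4 (range -0.2813 to 0.005071). The cause was not tested. The other ratios kept their calls without any single library (adjusted p at most 0.0231). Sign flips within numbers, whose smallest p is 0.0312, gave adjusted p of 0.0625, 0.0625 and 0.0833 at the same differences. Low counts limit Zkscan4, Zscan30 and Zscan18.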
